A study of Mus musculus with 10 samples.

Results

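The 10 genes described here serve protein folding in the endoplasmic reticulum (ER) of the liver. They are the chaperone genes Hspa5, Hsp90b1 and Hyou1, the disulfide isomerase genes Pdia4 and Pdia6, the co-chaperone genes Dnajb9, Dnajb11 and Sdf2l1, the degradation factor gene Herpud1, and Xbp1, which encodes the transcription factor that drives many of the others. They were chosen by name, as every probe set annotated to 1 of these symbols alone. All 10 were measured, by 11 probe sets, out of 19933 genes tested.

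Their levels were compared between whole livers of 5 wild-type (WT) C57Bl/6 mice, bought from a supplier, and of 5 mice lacking both copies of Nr1d1 (KO), a line repeatedly crossed back to C57Bl/6. Nr1d1 encodes Rev-erb alpha, a transcriptional repressor of the circadian clock. All mice were males aged 10 to 12 weeks on normal chow in a cycle of 12 h light and 12 h dark, and were killed at ZT10, which is 10 h after lights on. Each mouse gave 1 RNA sample and 1 Affymetrix Mouse Gene 1.0 ST array. WT mice were purchased and KO mice bred, so genotype and origin cannot be told apart in any difference given here.

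Levels are log2 intensities, and a difference is the KO mean less the WT mean of these log2 values, so that a negative one is lower in KO. Array medians ran from 156 to 165 in linear intensity, and the table carries no detection calls. The only Nr1d1 probe set was not lower in KO (WT 9.78 ± 0.16, KO 9.92 ± 0.45, SD, n = 5 each). The sources used here do not say whether it lies in the deleted part, so it does not check the genotype. Arntl, a clock gene repressed by Rev-erb alpha, separated all KO from all WT livers, with a difference of 2.13. The 7 measured hepatocyte markers, among them Alb, Ttr and Apoa1, lay at a mean of 13.61 to 13.66 in WT and 13.58 to 13.66 in KO livers.

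Proteins that hepatocytes secrete are folded in the ER by chaperones that hold unfolded chains, isomerases that form disulfide bonds and co-chaperones that time the chaperone cycle. When unfolded chains build up, the sensors IRE1, PERK and ATF6 are activated. IRE1 cuts the Xbp1 mRNA so that active XBP1 is made, and XBP1 and cleaved ATF6 then raise transcription of chaperone and degradation genes. In mouse liver this response is known to vary over the day and with feeding.

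In KO livers 9 of the 10 genes had lower means than in WT livers, and 1 of them, Pdia6, passed the test. The median difference over the 10 genes was -0.40, against 0.01 over all genes tested, and 45.9% of all genes had a difference below 0. A gene was called changed at a limma p adjusted by Benjamini-Hochberg over all genes under 0.05. That rule called 2.44% of all genes lower in KO. At an unadjusted limma p under 0.05 the same 9 genes were lower, against 8.40% of all genes. Herpud1 was the exception, with a difference of 0.11. The spread between livers was larger in WT than in KO for all 10 genes. WT replicates 1, 2 and 3 held the high values, whereas WT replicates 4 and 5 lay mostly among the KO livers. That split of the WT livers went with a number in the sample titles, and within the higher numbers the median difference of the 10 genes was -0.0039, as given with the order of the livers.

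**Figure D1:**
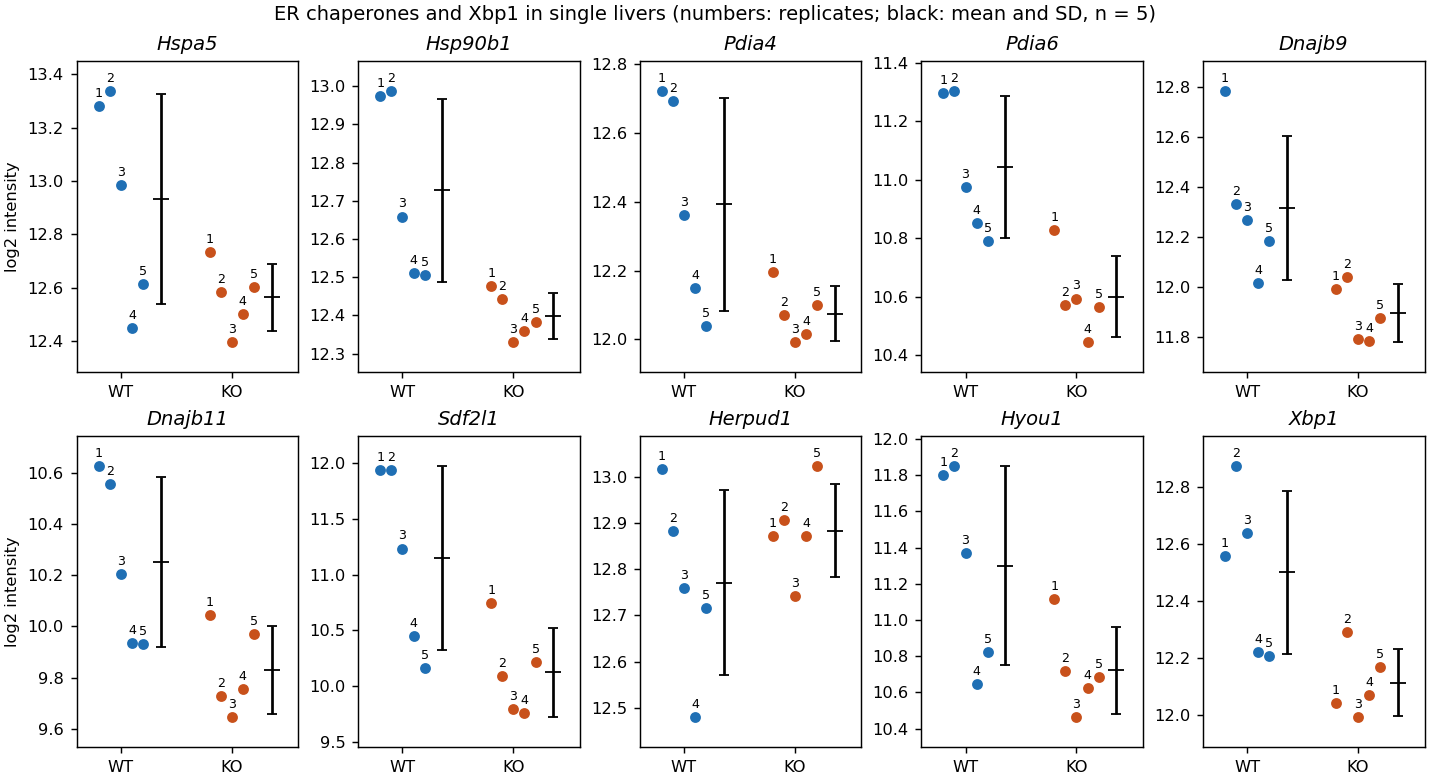
Log2 intensity (vertical axis) of each of the 10 genes in the 5 WT livers (blue) and 5 KO livers (orange), with replicate numbers beside the points and the mean and SD in black. WT replicates 1, 2 and 3 lie above every KO liver for 9 genes, and WT replicates 4 and 5 for 2.

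The promoters are shown because some of them hold either of 2 rare sequence elements. The genes were chosen by name and not by sequence, but as ER folding genes of which XBP1 drives many. How often they hold elements of the ER stress response is therefore not independent of that choice. The ER stress response element (ERSE) is CCAAT followed, after 9 bases of any kind, by CCACG. Its first part is bound by the factor NF-Y and its second by ATF6 or XBP1. ERSE-II has ATTGG and CCACG with 1 base between them. RefSeq windows (GRCm38.p6) of 250 bases before to 50 after the gene start were matched for 9 of the genes, all but Hyou1, and searched on both strands. Excerpts upstream of the start are printed 5′ to 3′ on the gene's strand, with the outer 5 bases at each end of an element in capitals. They lie at chr2:34772005-34772063 (+ strand), chr10:86705513-86705676 (- strand), chr12:17266471-17266529 (+ strand) and chr8:94386357-94386407 (+ strand). The first 3 sequences hold ERSE, and that of Herpud1 holds ERSE-II.
Hspa5: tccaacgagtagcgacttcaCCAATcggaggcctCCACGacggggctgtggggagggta
Hsp90b1: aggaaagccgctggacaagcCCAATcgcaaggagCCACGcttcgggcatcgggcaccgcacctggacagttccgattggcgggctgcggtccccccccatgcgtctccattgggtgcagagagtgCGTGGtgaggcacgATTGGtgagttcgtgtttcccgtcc
Pdia6: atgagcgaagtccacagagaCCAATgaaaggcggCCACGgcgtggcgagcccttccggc
Herpud1: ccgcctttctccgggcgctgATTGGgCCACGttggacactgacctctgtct

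ERSE occurred in 3 of 9 windows, those of Hspa5, Hsp90b1 and Pdia6, against 0.119% of all 32851 windows in the table. Hsp90b1 carried it 2 times, once on each strand, starting 212 and 107 bases before the gene start. In Hspa5 it started 65 bases and in Pdia6 98 bases before the start. ERSE-II occurred in 2 of 9 windows, at 52 bases before the start in Herpud1 and, in Dnajb11, from base 8 after it, against 0.0365% of all windows. The parts counted alone, which include those inside the elements above, were common. CCACG was in 8 of 9 windows (32.8% of all) and CCAAT also in 8 of 9 (37.4% of all). The window of Xbp1 held neither part. The XBP1-binding core TGACGTGG was in 0 of the windows (0.676% of all), its variant TGACGTGA in that of Hspa5 (0.441% of all), and the cyclic AMP element TGACGTCA in 0 (1.79% of all). Of sequences read by Rev-erb and ROR receptors, the core AGGTCA was in 3 windows, those of Hspa5, Pdia4 and Herpud1 (16.3% of all), and the full element, RORE, in 0 (0.384% of all). A match of letters does not show that a factor binds there.

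Among the chaperones, Hspa5 encodes BiP, the main ATP-driven chaperone of the ER and the protein that holds the stress sensors inactive. Hspa5 read 13.28, 13.34, 12.98, 12.45 and 12.61 in WT replicates 1 to 5 and 12.73, 12.58, 12.40, 12.50 and 12.60 in KO replicates 1 to 5. Above every KO liver lay WT replicates 1, 2 and 3, while WT replicates 4 and 5 lay within the KO range. The means were 12.93 ± 0.39 in WT and 12.56 ± 0.13 in KO (SD, n = 5 each). The difference, -0.37 with SE 0.15, did not pass (limma adjusted p = 0.230). Taken back from log2, this difference put KO at 77.5% of WT, which is a ratio of geometric means. Percentages of the WT level below were computed in the same way.

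Hsp90b1 encodes the ER form of the HSP90 chaperones. It read 12.97, 12.99, 12.66, 12.51 and 12.50 in the WT livers and 12.48, 12.44, 12.33, 12.36 and 12.38 in the KO livers, in replicate order. It was the only 1 of the 10 genes whose KO livers all lay below all WT livers; the nearest pair was WT replicate 5 and KO replicate 1. Over all genes tested, 3.02% were separated this way. The difference was -0.33 with SE 0.096, a KO level of 79.6% of WT, and it did not pass (limma adjusted p = 0.0707). Hyou1 encodes a large HSP70-like protein that exchanges the nucleotide of BiP. Its WT livers ran from 10.65 to 11.85 and its KO livers from 10.46 to 11.11, with WT replicates 1, 2 and 3 above all KO livers. Its difference was -0.58 with SE 0.22 (limma adjusted p = 0.179), the second in size after Sdf2l1.

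Of the disulfide isomerases, Pdia6 was the gene that passed. Pdia6 forms and reshuffles disulfide bonds and is known to dampen the signal of IRE1 and PERK. It read 11.30, 11.30, 10.97, 10.85 and 10.79 in WT replicates 1 to 5 and 10.83, 10.57, 10.59, 10.45 and 10.56 in KO replicates 1 to 5. The groups overlapped only through KO replicate 1, which lay above WT replicate 5. Pdia6 fell by 0.44 (SE 0.11, limma adjusted p = 0.0309), from 11.04 ± 0.24 to 10.60 ± 0.14 (SD, n = 5 each), or to 73.6% of the WT level. The call was lost without any 1 of WT replicates 1, 2 and 3 and KO replicates 2, 3, 4 and 5 (adjusted p up to 0.0829). Over the 10 fits that each left out 1 array, its difference ran from -0.51 to -0.38.

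Pdia4 encodes an isomerase with a chaperone role and had 2 probe sets. The brighter, which stands for the gene, ran from 12.04 to 12.72 in WT and from 11.99 to 12.20 in KO, and differed by -0.32 (SE 0.12; limma adjusted p = 0.177). Its 3 highest livers were WT replicates 1, 2 and 3. The dimmer read 9.84, 9.52, 8.86, 8.72 and 9.19 in the WT livers and 8.76, 9.09, 8.72, 9.03 and 8.85 in the KO livers. Only WT replicates 1, 2 and 5 exceeded every KO liver there, so the probe sets placed WT replicate 3 differently. Its difference of -0.34 with SE 0.18 was close in size and did not pass (limma adjusted p = 0.393 over 21631 probe sets).

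Among the co-chaperones, Sdf2l1 had the largest difference of the 10 genes. SDF2L1 works in the BiP cycle together with the J-protein DNAJB11. Sdf2l1 read 11.94, 11.94, 11.24, 10.45 and 10.16 in the WT livers and 10.75, 10.09, 9.80, 9.76 and 10.22 in the KO livers. The top 3 were WT replicates 1, 2 and 3, and WT replicates 4 and 5 lay below KO replicate 1. The means were 11.15 ± 0.83 in WT and 10.12 ± 0.40 in KO (SD, n = 5 each), a difference of -1.02 with a 95% interval from -1.75 to -0.30. With an SE of 0.33, also the largest of the 10, it did not pass (limma adjusted p = 0.107).

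Dnajb11 and Dnajb9 encode J-proteins, which stimulate the ATPase of BiP. DNAJB9 is also known to bring BiP to IRE1 and so to repress it. Dnajb11 ran from 9.93 to 10.63 in WT and from 9.65 to 10.05 in KO, and differed by -0.42 (SE 0.14; limma adjusted p = 0.112). Dnajb9 read 12.78, 12.33, 12.27, 12.02 and 12.19 in the WT livers and 11.99, 12.04, 11.79, 11.79 and 11.88 in the KO livers. All WT livers but replicate 4 lay above all KO livers. Its difference was also -0.42, with SE 0.12, and was the closest to the threshold of those that missed it (limma adjusted p = 0.0588).

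Herpud1, which encodes a membrane protein of the complex that sends misfolded proteins to the proteasome, did not share the direction. It read 13.02, 12.88, 12.76, 12.48 and 12.72 in the WT livers and 12.87, 12.91, 12.74, 12.87 and 13.02 in the KO livers. The groups overlapped widely, with WT replicates 4 and 5 below all KO livers and WT replicate 1 among the highest. The difference was 0.11 with SE 0.088 and a 95% interval from -0.08 to 0.30 (limma adjusted p = 0.628). Within WT, Herpud1 still followed the other genes, with its highest value in replicate 1.

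Xbp1 read 12.56, 12.87, 12.64, 12.22 and 12.21 in the WT livers and 12.04, 12.29, 11.99, 12.07 and 12.17 in the KO livers. WT replicates 1, 2 and 3 lay above all KO livers, and WT replicates 4 and 5 lay below KO replicate 2. The means were 12.50 ± 0.28 and 12.11 ± 0.12 (SD, n = 5 each). The difference, -0.39 with SE 0.12, did not pass (limma adjusted p = 0.0819). The KO geometric mean stood at 76.5% of WT. The value is for Xbp1 mRNA as the probe set reads it. The sources used here do not say whether that probe set tells the form cut by IRE1 from the uncut form.

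**Figure D2:**
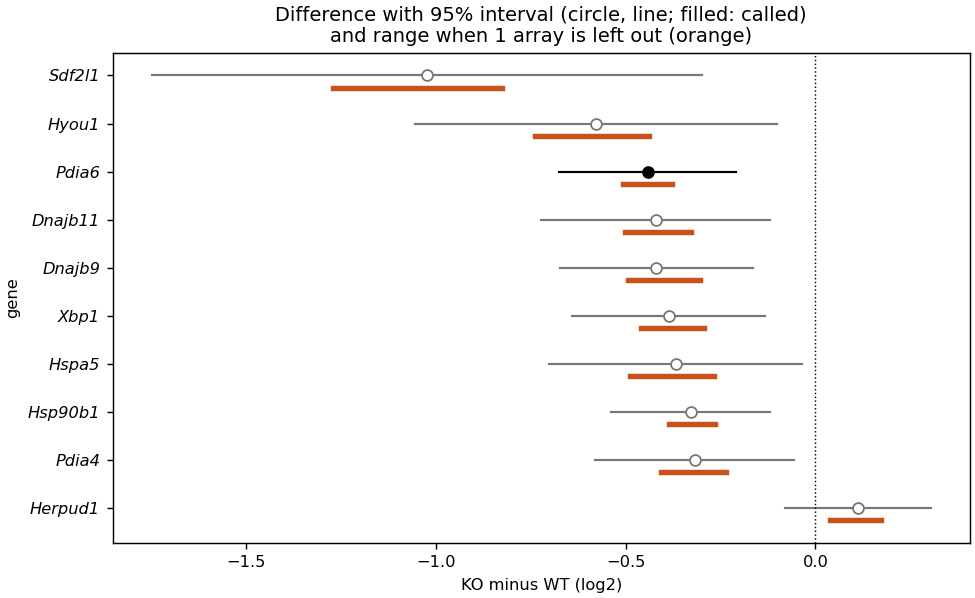
Difference KO minus WT on the log2 scale (horizontal axis) for each gene, with its 95% interval (line), the call (filled circle, Pdia6) and, in orange, the range of the difference over the 10 fits that each left out 1 array. The 9 negative differences kept their sign in all of these fits, and so did the positive difference of Herpud1.

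Which genes were called depended on single livers of both genotypes. Without WT replicate 4, 6 of the 10 genes were called lower, namely Hspa5, Hsp90b1, Pdia6, Dnajb9, Hyou1 and Xbp1. Without WT replicate 5 there were 4, namely Hsp90b1, Pdia6, Sdf2l1 and Xbp1, and without WT replicate 1 there was 1, Dnajb9 (adjusted p = 0.0491). Without WT replicate 2 or 3, or without KO replicate 2, 3, 4 or 5, 0 genes were called by limma, and 6 to 9 were lower at an unadjusted p under 0.05. Over all genes, 487 were called lower with all arrays, 611 without WT replicate 4, 375 without WT replicate 5 and 390 without WT replicate 1. Without WT replicate 2 or 3, or KO replicate 2, 3, 4 or 5, that total was 349 to 436. The median difference of the 10 genes ran from -0.49 to -0.32 over these 10 fits.

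The spread between livers was larger in WT than in KO for these genes and for most genes of most related lists. The SD over WT livers exceeded the SD over KO livers in 10 of 10 genes, against 48.7% of all genes tested. It was at least 2 times as large in 7 of 10, against 12.2% of all genes. The ratio of the WT to the KO SD ran from 1.74 for Pdia6 to 4.02 for Hsp90b1, with a median of 2.35, whereas the median over all genes was 0.98. Between the lowest and the highest WT liver, Sdf2l1 spanned 1.78, Hspa5 0.89 and Dnajb9 0.77 on the log2 scale. The corresponding KO ranges were 0.99, 0.34 and 0.26. The WT SD was also the larger in 14 of 16 cytosolic chaperones, 12 of 15 genes of ER-associated degradation, 18 of 24 of transport to the Golgi, 14 of 20 of the translocon and 19 of 29 other ER chaperones and foldases. It was the larger in 6 of 8 mitochondrial chaperones and 7 of 11 genes of the PERK and ATF4 branch, but in only 3 of 7 stress sensors and their proteases. Whether the spread differs between the genotypes, or between these genes and the related lists, was not tested.

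**Figure D3:**
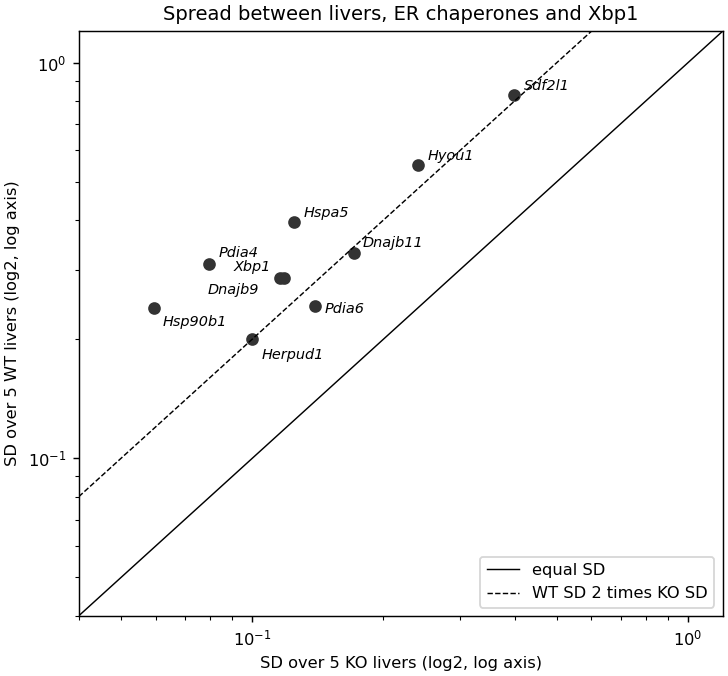
SD over the 5 WT livers (vertical axis) against SD over the 5 KO livers (horizontal axis) for each of the 10 genes, both of log2 intensity and on log axes. All points lie above the solid line of equal SD, and 7 lie above the dashed line where the WT SD is 2 times the KO SD, with Herpud1 just under it.

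The same livers were high or low for most of the genes. The highest WT liver was replicate 1 for 5 genes and replicate 2 for the other 5, and the lowest was replicate 4 for 4 genes and replicate 5 for 6. Averaged over the 10 genes, the deviation from the mean of all livers was 0.57 in WT replicate 1, 0.55 in replicate 2 and 0.22 in replicate 3, but -0.16 in replicate 4 and -0.13 in replicate 5. The KO livers lay at -0.02, -0.19, -0.35, -0.31 and -0.17 in replicates 1 to 5. WT replicates 4 and 5 were thus below KO replicate 1 on this average and above the other KO livers. Each of WT replicates 1, 2 and 3 exceeded all KO livers in 9 of 10 genes, all but Herpud1, and WT replicates 4 and 5 each in 2. Within KO, replicate 1 was the highest for 7 genes and replicate 3 the lowest for 7.

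**Figure D4:**
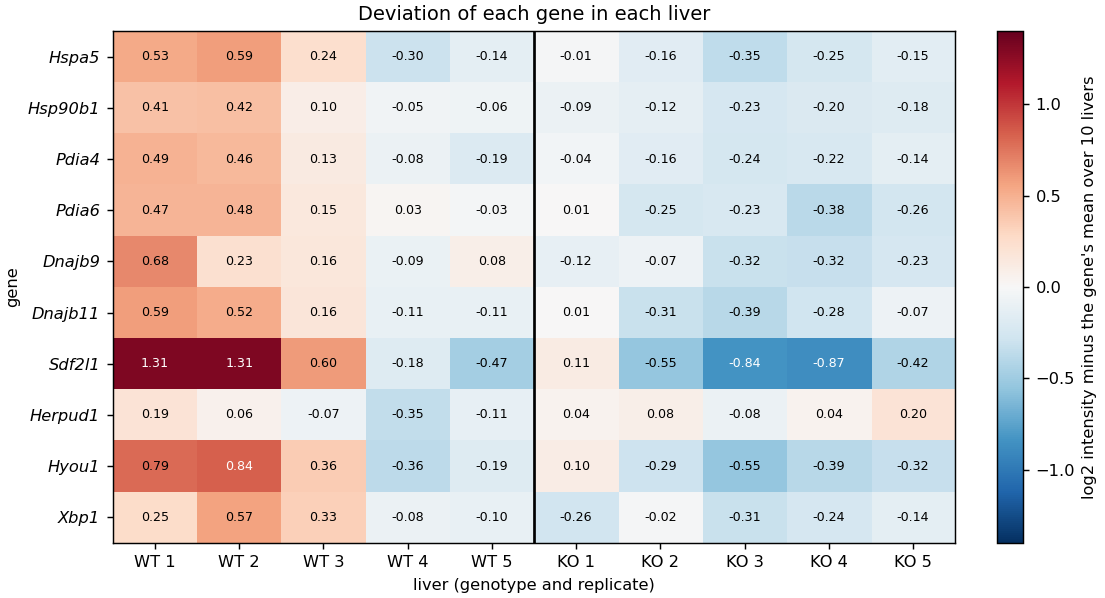
Log2 intensity of each gene (rows) in each liver (columns) minus the gene's mean over the 10 livers, with red above and blue below that mean. WT replicates 1, 2 and 3 are red for every gene except Herpud1, which is at -0.07 in replicate 3, and the colours of WT replicates 4 and 5 are close to those of the KO livers.

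Among the WT livers the order went with the last number in the sample titles, whose meaning the labels do not give. Sorted by that number, the widest gap left both genotypes on each side. The lower numbers belonged to WT replicates 1, 2 and 3 and KO replicates 3, 4 and 5, and the higher to WT replicates 4 and 5 and KO replicates 1 and 2. This split was made after the values were seen, and in WT it is the same as the split of the values. In KO the average deviation did not go that way. It was -0.35, -0.31 and -0.17 in the lower numbers (replicates 3, 4 and 5) and -0.02 and -0.19 in the higher (replicates 1 and 2).

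Within the lower numbers (3 WT and 3 KO livers) the median difference of the 10 genes was -0.65, and 9 were called lower by limma, all but Herpud1. Of all 19933 genes, that fit called 327 lower. Within the higher numbers (2 WT and 2 KO livers) the median was -0.0039 and 0 were called by limma (smallest adjusted p of the 10 genes 0.202), with 0 lower and 1 higher, Herpud1, at an unadjusted p under 0.05. This smaller fit called 196 of all genes lower. There Sdf2l1 stood at 0.11, Hyou1 at 0.18, Hspa5 at 0.13, Pdia4 at 0.039 and Herpud1 at 0.29, and the other 5 lay between -0.12 and -0.05. The corresponding values in the lower numbers were -1.78 for Sdf2l1, -1.08 for Hyou1, -0.70 for Hspa5, -0.56 for Pdia4 and -0.0076 for Herpud1. With the side of the gap as a term in the fit, Pdia6 was still the only 1 called (adjusted p = 0.0334). The difference between the sides was not tested, nor was the part of what the number stands for.

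Measures of the arrays and of other cell types were also set beside this order. The interquartile range of log2 values was 2.98 and 2.93 on the arrays of WT replicates 1 and 2, 2.81 on that of replicate 3, and 2.89 and 2.94 on those of replicates 4 and 5. On the KO arrays it was 2.81, 2.82, 2.80, 2.96 and 2.99 in replicates 1 to 5. The mean deviation of the hepatocyte markers lay between -0.06 and 0.03 over all 10 livers. All of these markers but Hnf4a had means above 13.5, close to the highest intensity in the table. Whether readings so near the top can show a change was not tested. Cells rich in these chaperones, plasma cells and pancreatic acinar cells, were followed by marker lists. Of 9 plasma and B cell markers 0 were called by limma and 1 had an unadjusted p under 0.05. Their summed linear intensity was 2219 to 2506 in WT and 1908 to 2625 in KO livers. Most of that sum was Sdc1, with log2 means of 10.75 in WT and 10.56 in KO livers. The next brightest in WT, Cd79b, had a WT mean of 7.37. The sum therefore mainly read Sdc1, and which cells of whole liver gave its signal was not tested. Of 12 acinar markers 0 were called, 0 had an unadjusted p under 0.05, and the sums were 1374 to 1658 in WT and 1366 to 1636 in KO livers. Of these lists, 6 and 4 markers lay below the lower quartile of gene means. The Kupffer cell (10 genes), stellate (10) and endothelial (9) lists had 0 called genes each. At an unadjusted limma p under 0.05 they had 0, 1 lower in KO (Lrat) and 3 higher (Stab2, Tek and Clec4g). The endothelial list had a median difference of 0.13, with 2 of 9 below 0. Among 5 cholangiocyte markers Sox9 rose by 0.62 (limma adjusted p = 0.0129). That call was lost without the 3 arrays of widest interquartile range and within the higher title numbers. The summed intensity of the cholangiocyte list was 624 to 720 in WT and 741 to 945 in KO livers. That rise was mostly Sox9, as Krt7 (-0.11), Krt19 (-0.02) and Epcam (-0.007) had differences below 0 and only the dim Cftr (0.11) another above. The part of this list in the results above was not tested. In whole liver, fewer cells of a type and less RNA per cell cannot be told apart.

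The genes whose pattern was most like that of the 10 were found by correlating deviations from the genotype mean over the 10 livers with the average of the 10 genes. Within the set, the correlation of a gene with the average of the others ran from 0.75 for Xbp1 to 0.98 for Hspa5. Among 14939 other genes the highest values were those of Syvn1, the ubiquitin ligase of ER degradation (0.98), Entpd7 (0.98), Manf, a secreted ER stress protein (0.98), Wars, a tRNA synthetase (0.98), Osbp, an oxysterol-binding protein (0.98), 6430548M08Rik (0.98), Mal2 (0.97) and Creld2, an ER chaperone-like gene (0.97). These values are descriptions over 10 livers that share arrays, with WT replicates 1 and 2 as the extreme points. None of the 8 was called by limma (adjusted p from 0.102 to 0.881), and 7 of them, all but Mal2, had an unadjusted p under 0.05. Syvn1 read 11.77, 11.75, 11.05, 10.03 and 10.25 in the WT livers and 10.08 to 10.45 in the KO livers. Creld2 read 12.29, 12.46, 11.62, 10.10 and 10.43 in the WT livers and 10.04 to 10.72 in the KO livers. In both, WT replicates 1, 2 and 3 lay above all KO livers and WT replicates 4 and 5 did not.

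Other genes of ER folding were mostly below 0 in difference, and some passed. Of 29 measured chaperones and foldases 6 fell, 1 rose and 22 did not pass, with a median of -0.17. By comparison, 3.17% of all genes tested were called higher. Pdia5, a disulfide isomerase, fell by 0.57 (SE 0.062, limma adjusted p = 0.000171), Fkbp11, a prolyl isomerase, by 0.41, Txndc5 by 0.39 and Txndc11 by 0.34. Fkbp7, named after its value was seen, rose by 0.32. Pdia5 differed from the 10 genes in its spread. It read 10.94, 11.06, 11.05, 10.92 and 10.94 in the WT livers and 10.46, 10.59, 10.27, 10.34 and 10.38 in the KO livers, so that WT replicates 4 and 5 stayed with the other WT livers. Its WT SD was 0.067 and its KO SD 0.12.

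ER-associated degradation had 1 called gene among 15 measured, with a median of -0.18 and all 15 differences below 0. Edem2, a lectin-like factor that marks misfolded glycoproteins for disposal, fell by 0.42 (SE 0.063, limma adjusted p = 0.00174). It ran from 10.04 to 10.31 in the WT livers and read 9.82, 9.63, 9.69, 9.58 and 9.72 in the KO livers, without overlap. Pdia5 kept its call in all 24 alternative settings and Edem2 in 23, all but the fit within the higher title numbers. The call of Fkbp11 was lost without the 3 arrays of widest interquartile range (adjusted p = 0.136) and within either side of the title numbers. Those of Txndc5, Txndc11 and Fkbp7 were lost in 10, 9 and 12 settings, of which 7, 6 and 8 left out 1 array (adjusted p up to 0.0790, 0.0826 and 0.0959 there). The arrays concerned were WT replicates 1, 2 and 3 and KO replicates 3, 4 and 5 for Txndc5 and Txndc11, with KO replicate 2 for Txndc5, and every array but WT replicate 1 and KO replicate 3 for Fkbp7.

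The translocon and signal peptidase, through which new chains enter the ER, had 0 of 20 genes called by limma and 11 at an unadjusted p under 0.05, all 20 with differences below 0 (median -0.17). Of 24 genes of transport from the ER to the Golgi, Mcfd2, a cargo receptor subunit for clotting factors, fell by 0.25 and 23 did not pass (median -0.08). That call was lost without any 1 of WT replicates 1, 2 and 3 and KO replicates 2, 3 and 4 (adjusted p up to 0.0831).

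The stress sensors themselves had 0 of 7 genes called by limma and 2 at an unadjusted p under 0.05. The PERK gene Eif2ak3 had a difference of -0.30 (SE 0.10, limma adjusted p = 0.130), the IRE1 gene Ern1 -0.20 (SE 0.076, 0.177), Atf6 -0.15 (SE 0.075, 0.358) and Atf6b -0.07. The gut form of IRE1, Ern2, stood at 0.05, the liver factor Creb3l3 at -0.03 and Mbtps1, the protease that cleaves ATF6, at 0.02. Of 11 genes of the PERK and ATF4 branch, Asns fell by 2.84 and Atf4 by 0.24, and 9 did not pass. The median was -0.10, with 6 differences below 0 and 5 above. Ddit3, the CHOP gene, had a difference of -0.22 (limma adjusted p = 0.145). The highest was that of Trib3, a target of ATF4 and CHOP named after its value was seen, at 0.18 (limma adjusted p = 0.282). The call of Atf4 was lost without any 1 of WT replicates 2, 3 and 5 and KO replicates 2, 3 and 5 (adjusted p up to 0.0665).

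Cytosolic chaperones, which answer heat shock rather than ER stress, shared that order. Of 16 measured genes, Hspb1 fell by 1.87 and 15 did not pass, with a median of -0.33 and all 16 differences below 0. Their mean deviation was 0.42, 0.65 and 0.29 in WT replicates 1, 2 and 3, -0.27 in replicate 4 and -0.02 in replicate 5. In the KO livers it lay between -0.41 and -0.09. The call of Hspb1 was lost without the 3 arrays of widest interquartile range (adjusted p = 0.0885).

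**Figure D5:**
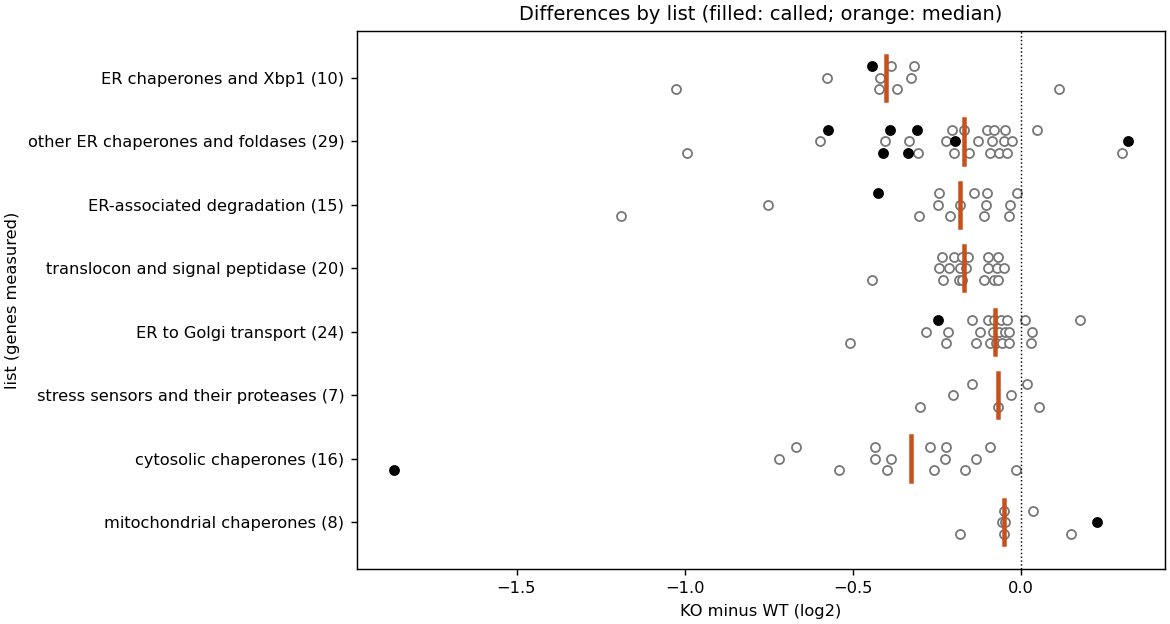
Difference KO minus WT on the log2 scale (horizontal axis) of each measured gene, by list, with called genes filled and the median of each list in orange. The ER chaperones with Xbp1 have a median of -0.40, the cytosolic chaperones of -0.33, the other ER lists medians from -0.18 to -0.07, and the mitochondrial chaperones a median of -0.05.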

How the data were processed

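Gene expression was measured in the livers of 5 WT and 5 KO mice with 1 array per mouse. The authors deposited normalized intensity values on a linear scale, from 8.93 to 18280, for 27541 probe sets. The tools, per the submitters' processing notes, were RMA and Partek (no version given), and filters before deposit are not stated in those notes or the labels. After taking log2, probe sets with 1 symbol in the platform's annotation (21631) were kept. Of genes with several probe sets (951), the brightest stood for the gene, which left 19933 genes. Groups came from the genotype labels.

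The genotypes were compared in limma 3.58.1 under R 4.3.3 (lmFit and eBayes, two-sided, no covariates), with p-values adjusted by Benjamini-Hochberg over all genes. The fit was tested on simulated data. They rest on the spread among 5 mice per genotype, and the number of arrays limits the precision. The genes, lists and alternatives were chosen with earlier results of these data known. Of 217 list entries 202 were measured, a few of them under another symbol of the same gene in RefSeq. Named beside the 10 genes are up to 4 called genes per list by smallest adjusted p, all stress sensors, Atf4, Ddit3 and Asns, and the 8 genes most like the set in pattern among those with a mean above the lower quartile. A motif search in RefSeq promoter windows (GRCm38.p6) was a description. The alternatives tried were other choices of probe set, scaling, filter and variance model, and fewer arrays. A split by the last number of the sample titles was added after the data were seen.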

Additional observations from a re-analysis of the deposited data

How the results depend on the processing

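Over the 21 planned settings, the median difference of the 10 genes stayed negative, from -0.49 to -0.29, and the WT SD exceeded the KO SD in all 10 genes in each. The number called lower was 1 in the fit reported. It was 2 with quantile normalization repeated (Hsp90b1 with Pdia6), 2 with a trended prior (Dnajb9 with Pdia6) and 0 without the 3 arrays of widest interquartile range (WT replicate 1, KO replicates 4 and 5), where the fit has fewer arrays. Leaving out 1 array at a time gave 0 to 6. Of the 95 genes of the other ER lists, 8 were called lower. This was 5 with array weights, 2 without the 3 arrays of widest interquartile range and 3 to 18 when 1 array was left out (18 without WT replicate 4; 3 without WT replicate 1 or 2 or KO replicate 3 or 4; 4 without WT replicate 3 or KO replicate 2). The number called higher was 1. It was 2 without dim genes, with a trended prior and with 16 added before log2, 0 with arrays centred on the median, and 0 to 2 when 1 array was left out. Causes were not tested. In these 21 settings no difference of the 10 genes changed sign. After the data were seen, 3 settings were added from the last number of the sample titles. As a term it gave 0 other ER genes called higher and moved no other of these counts by over 1.5 times. Within the lower numbers, which hold the 3 high WT livers, 9 of the 10 genes and 21 other ER genes were called lower. There 0 were called higher, and Herpud1 changed sign to -0.0076. Within the higher numbers 0 of the 10 genes and 1 other ER gene were called lower and 0 higher, the median of the 10 was -0.0039, 3 had the larger SD in WT, and Hspa5 (0.13), Pdia4 (0.039), Sdf2l1 (0.11) and Hyou1 (0.18) changed sign. Without detection calls, how far a dim gene stood over background is unknown. Over all genes, 487 were lower in KO. This was 232 without the 3 arrays of widest interquartile range and 349 to 611 when 1 array was left out. Within the lower title numbers it was 327, and within the higher 196.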

Other observations

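ERSE is rare, and the other genes that carry it include more of the ER folding machinery. Besides the 10 genes, 18 tested genes had it in a window, among them the lectin chaperones Calr and Canx, the co-chaperone Dnajc3, the oxidase Ero1b, and Creld2, Derl3 and Syvn1. They were named after the search. Of the 18, 0 were called lower by limma, 1 (Acnat2, a liver acyltransferase) was called higher and 11 had differences below 0, with a median of -0.10. In 12 of the 18 the WT SD exceeded the KO SD. Of 7 further genes with ERSE-II, 0 were called lower and Lgalsl was called higher.

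Derl3, which encodes an inducible channel protein of ER degradation, had the largest difference of the ER lists and is named after its value was seen. It read 10.31, 10.59, 8.87, 9.19 and 8.32 in the WT livers and 8.60, 7.97, 8.77, 7.97 and 8.02 in the KO livers. WT replicates 1 and 2 again stood highest. Its difference was -1.19 with SE 0.38, and it did not pass (limma adjusted p = 0.0973).

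On average, mitochondrial chaperones did not follow the order of livers seen in the ER. Their mean deviation stayed between -0.06 and 0.08 in all 10 livers. Hspe1 and Hspd1, named after their values were seen, were the only genes of the list with WT replicates 1, 2 and 3 above all KO livers. Hspe1 read 11.88, 11.94, 11.79, 11.64 and 11.74 in the WT livers and 11.49 to 11.74 in the KO livers. Of 8 measured, Dnaja3, a mitochondrial J-protein gene, rose by 0.22 (limma adjusted p = 0.0318) and 7 did not pass. That call was lost in 12 settings, of which 8 left out 1 array, all but WT replicate 2 and KO replicate 2 (adjusted p up to 0.0794 there).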
